A study of Mus musculus with 3 samples.

Results

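The BCL2 family genes described here are the 10 listed members Bcl2, Bcl2l1, Mcl1, Bax, Bak1, Bcl2l11, Bad, Bid, Bbc3 and Pmaip1, taken by symbol from the 23337 gene symbols measured. Each of the 10 had a single row in the files. Total RNA was sequenced from Th1 cells, the T helper subset marked by T-bet, of 7 weeks old wild-type mice of strain C57/Bl6j. The tumour group is 1 library of T cells from tumours of B16-F10, a mouse melanoma line that arose in this strain. The lymphoid group is 2 libraries, titled as spleen, while their tissue label also lists lymph nodes, draining ones included. No treatment, pooling or separate animals are stated, and the spread that the p-values rest on may therefore be technical.

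The family decides whether a cell opens its outer mitochondrial membrane, the step that releases cytochrome c and starts the caspases of intrinsic apoptosis. Pro-survival members (BCL2, BCL-XL and MCL1) hold the effectors BAX and BAK in check. BH3-only members such as BIM, NOXA, PUMA, BAD and BID sense stress or loss of survival signals and bind the pro-survival proteins or the effectors. In T cells BIM is known as a main executor of the death of activated cells after a response, and BCL2 and MCL1 as proteins that keep resting and activated cells alive.

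Promoter sequences are shown for 3 of the 4 members whose level differed between tumour and lymphoid cells. Each of these windows holds 1 match to the motif of a factor known from textbooks to act on that gene. The remaining called member, Pmaip1, had no window and was not searched. The windows run from 250 bases before to 50 bases after a RefSeq start (GRCm38.p6, the assembly of mm10), 5′ to 3′ on the strand of the gene, and capitals mark the match. The Bcl2l11 window, chr2:128125788-128126087 on the + strand, is 1 of 2 for this gene, and its capitals are a FOXO motif, GTAAACA. The Bcl2l1 window, chr2:152830668-152830967 on the - strand, is 1 of 3, and its capitals are an NF-kB motif, GGGNNTTCC, read on the opposite strand. The Bax window, chr7:45466849-45467148 on the - strand, holds 1 p53 half-site.
Bcl2l11 promoter: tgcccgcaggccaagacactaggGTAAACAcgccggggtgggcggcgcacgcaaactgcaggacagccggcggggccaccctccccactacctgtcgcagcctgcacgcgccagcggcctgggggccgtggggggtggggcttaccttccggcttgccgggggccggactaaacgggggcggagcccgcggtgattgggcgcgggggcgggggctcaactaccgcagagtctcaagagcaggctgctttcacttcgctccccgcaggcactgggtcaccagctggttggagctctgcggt
Bcl2l1 promoter: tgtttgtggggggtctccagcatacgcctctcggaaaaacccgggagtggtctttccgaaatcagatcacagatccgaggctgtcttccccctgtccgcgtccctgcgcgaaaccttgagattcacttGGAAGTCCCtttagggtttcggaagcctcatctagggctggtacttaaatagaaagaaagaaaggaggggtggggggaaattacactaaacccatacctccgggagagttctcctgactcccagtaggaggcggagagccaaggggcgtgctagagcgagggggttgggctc
Bax promoter: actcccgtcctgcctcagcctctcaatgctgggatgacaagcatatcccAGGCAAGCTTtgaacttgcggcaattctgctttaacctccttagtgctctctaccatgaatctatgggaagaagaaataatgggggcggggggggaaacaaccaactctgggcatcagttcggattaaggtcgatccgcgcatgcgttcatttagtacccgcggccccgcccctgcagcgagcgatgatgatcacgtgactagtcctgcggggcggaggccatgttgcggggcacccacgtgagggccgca
On both strands, the FOXO motif was found in 3.65% of 32851 windows of this length, the NF-kB motif in 5.82% and the p53 half-site in 8.36%. Windows were available for 9 members. Besides these 3, 1 Bbc3 window held a FOXO match and another an NF-kB match, and the AP-1 motif TGANTCA and the cyclic AMP response motif TGACGTCA had no match in any member's window. A match describes the letters of the window and is not evidence of binding.

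The unit, which the files do not state, was read as FPKM, a level per length of transcript and per sequenced fragment. From the smallest steps between low values, depths of about 3270000 fragments for the tumour library and 11460000 and 15630000 for lymphoid libraries 1 and 2 were estimated. As deposited, most genes lay lower in the tumour library, with a median log2 change of -0.96, so values are given after median-of-ratios scaling, and changes are relative to the typical gene (median 0.02). The 8 T cell marker genes summed to 648 scaled FPKM in tumour and 688 and 683 in lymphoid libraries 1 and 2, and T-bet (Tbx21) was at 12.9, against 18.0 and 20.2. The 5 Th1 markers summed to 117 in tumour, against 131 and 122. Of these the cytokine gene Ifng was called lower (4.53 in tumour, against 12.9 and 12.0). Cxcr3 also lay below both lymphoid libraries, and Stat4 and Il12rb2 above both, without a call. The 5 CD8 T and NK markers summed to 33 in tumour, against 36 and 33. Of these Cd8b1 was at 4.77, against 0.494 and 0.783, and Klrb1c at 13.4, against 23.6 and 20.1. Klrk1 (not called) and Cd8a and Ncr1 (too low to test) lay above both lymphoid libraries. Myeloid markers summed to 11.1 in tumour cells, against 2.33 and 1.43, with none of the 7 measured at 0 in the tumour library. Melanocyte markers summed to 3.35, against 1.35 and 1.49, with Mlana at 0 in all 3 libraries. B cell markers summed to 0.646, against 0.757 and 0.530, with Ms4a1 at 0 in all 3. Stromal markers summed to 9.52, against 9.83 and 8.95, with Col3a1 at 0 in all 3. Most of the stromal sum was Pecam1 (7.7 in tumour, against 9.76 and 8.8). Pdgfrb (1.04, against 0.0243 and 0.0257), Kdr (0.565, against 0 and 0.0425) and Col1a1 (0.219, against 0.0422 and 0.0495) lay higher in tumour. Col1a2 was at 0 in tumour, against 0 and 0.0271. In tumour, 1419 odorant and vomeronasal receptor genes, which belong to other tissues, averaged 0.472 scaled FPKM, against 0.0335 and 0.0673 in lymphoid libraries. Some markers rested on few tumour fragments, such as Sox10 (about 3.96) and Dct (about 1.94), while the myeloid marker Itgam rested on about 34.9. Whether other cells were in the tumour library, and their part in the results below, was not tested. In a mixed sample, a change in RNA per cell and a change in the number of expressing cells cannot be told apart.

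Of the 9 members tested, 3 rose in tumour cells (Bcl2l11, Pmaip1 and Bcl2l1), 1 fell (Bax), and 5 did not pass the test (limma on log2 of scaled FPKM + 1, Benjamini-Hochberg adjusted p under 0.05). Over all 10004 tested genes, 14.0% were called higher and 6.71% lower. The median log2 change of the 9 members was 0.09. Without a test, 4 members lay above both lymphoid libraries, 2 below both and 3 between them, where 43.7% of all tested genes lay above and 40.7% below. Bbc3 was not tested, because its mean was under 1 scaled FPKM. The spread in the test comes from the 2 lymphoid libraries alone, with 1 residual degree of freedom, and an exact permutation of 1 against 2 libraries cannot give a p below 0.333. With the tumour library's estimated counting error added to the spread, limma called 0 of the members (adjusted p from 0.144 to 0.446 for the 4), and 3 had an unadjusted p under 0.05. That fit called 0.981% of genes higher and 0.0101% lower. With Satterthwaite degrees of freedom for that error, Bcl2l11 (adjusted p = 0.00114) and Pmaip1 (adjusted p = 0.00755) were called, where 11.0% of genes were called higher and 3.21% lower.

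**Figure D1:**
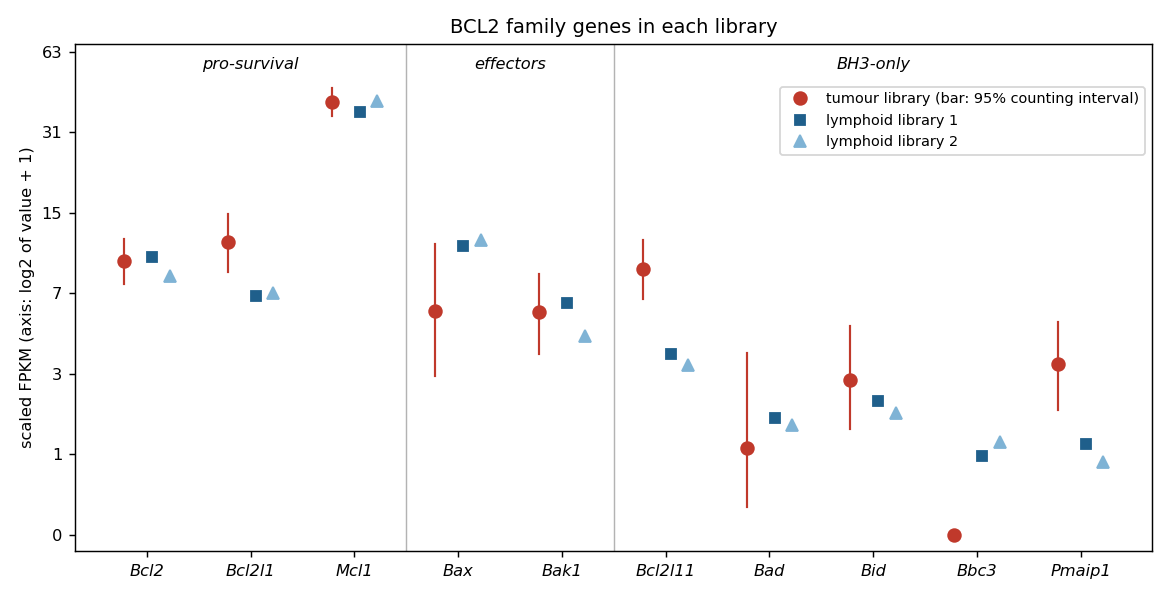
Level of each member in the tumour library (circles, with the 95% counting interval of the estimated fragments) and in lymphoid libraries 1 (squares) and 2 (triangles), as scaled FPKM on a log2 of value + 1 axis, grouped by role. After this scaling, the tumour circles of Bcl2l11 (8.87) and Pmaip1 (3.35) lie well above both lymphoid points, that of Bax (5.86) below them, and those of Bcl2 and Mcl1 beside them. Bbc3 is listed at 0 in the tumour library and has no interval.

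Among the pro-survival genes, Bcl2l1 passed the test after median-of-ratios scaling, and the abundant Mcl1 and Bcl2 did not. Mcl1 (ENSMUSG00000038612.16, chromosome 3, 95658788 to 95663176) encodes a short-lived protein that blocks BAK and BIM. It was the highest member in every library, at 40.7 scaled FPKM in tumour and 37.1 and 41.0 in lymphoid libraries 1 and 2. The tumour value lay between the lymphoid ones (log2 change 0.06, SE 0.16, limma adjusted p = 0.823), and Mcl1 ranked above 94.6% of tested genes in tumour and 94.5% and 94.7% in lymphoid cells. Bcl2 (ENSMUSG00000057329.7, chromosome 1, 106538178 to 106714274), the founding member, was at 9.61 in tumour and 9.92 and 8.26 in lymphoid libraries, also between them (log2 change 0.08, SE 0.18, limma adjusted p = 0.782). These 2 p-values do not show equality, and the calls turn on the scaling. As deposited both were called lower (-1.09, limma adjusted p = 0.00472 for Mcl1 and -0.97, adjusted p = 0.00517 for Bcl2), and with library totals Mcl1 was called higher (0.82, adjusted p = 0.0368). Bcl2l1 (ENSMUSG00000007659.18, chromosome 2, 152780668 to 152831728), which encodes BCL-XL, a survival protein raised when T cells are activated, was at 11.5 scaled FPKM in tumour and 6.85 and 7.03 in lymphoid libraries. The tumour value was 1.66 times the lymphoid mean of 6.94 ± 0.133 (SD, n = 2), and its 95% counting interval of 8.59 to 14.9 lay above both lymphoid values. The log2 change of 0.66 (SE 0.14, limma adjusted p = 0.0484) was close to the threshold and turned to -0.40 without scaling. It missed the threshold with a pseudocount of 0.1 (adjusted p = 0.0593) or among genes with a mean of at least 5 (adjusted p = 0.0678). With size factors from all genes the change was 0.39 (limma adjusted p = 0.111), and with Satterthwaite degrees of freedom the adjusted p was 0.0542.

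Of the genes for the effectors BAX and BAK, which form the membrane pores, Bax was called and Bak1 was not. Bax (ENSMUSG00000003873.11, chromosome 7, 45461697 to 45466898) was at 5.86 scaled FPKM in tumour and 11.0 and 11.7 in lymphoid libraries, 0.514 times the lymphoid mean of 11.4 ± 0.493. Its log2 change was -0.85 (SE 0.15, limma adjusted p = 0.0293). The tumour value rested on about 9.63 fragments, with a counting interval of 2.92 to 11.2 that reached lymphoid library 1, and with library totals as the scaling the change shrank to -0.16 (adjusted p = 0.649). The Bax transcript is short (867 nt). Among the 1008 tested genes under 1000 nt, 15.7% were called lower and 19.7% higher, against 6.71% and 14.0% of all tested genes, and their median log2 change was -0.10. The part of transcript length in the Bax value was not tested. A GENCODE gene on the same strand, Gm45808, overlaps Bax, and how shared reads were assigned is not given. Bak1 (ENSMUSG00000057789.14, chromosome 17, 27019810 to 27029009) was at 5.82 in tumour and 6.34 and 4.56 in lymphoid libraries, and did not pass the test (log2 change 0.09, SE 0.22, limma adjusted p = 0.794). In lymphoid cells Bax stood at 1.74 and 2.58 times Bak1, and in tumour cells at 1.01 times.

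The BH3-only genes held the 2 largest rises among the members. Bcl2l11 (ENSMUSG00000027381.16, chromosome 2, 128126038 to 128162547) encodes BIM, which binds every main pro-survival member and can activate BAX directly. It was at 8.87 scaled FPKM in tumour and 3.73 and 3.30 in lymphoid libraries. That is 2.53 times the lymphoid mean of 3.51 ± 0.304, with a counting interval of 6.65 to 11.7 from about 50.7 fragments. The log2 change was 1.13 (SE 0.15, limma adjusted p = 0.0165). Against the typical gene, Bcl2l11 ranked above 70.1% of tested genes in tumour and 41.3% and 37.5% in lymphoid cells. Pmaip1 (ENSMUSG00000024521.8, chromosome 18, 66458533 to 66465565) encodes NOXA, a BH3-only protein known for binding MCL1 and promoting its breakdown. It was at 3.35 in tumour and 1.19 and 0.877 in lymphoid libraries, 3.24 times the lymphoid mean of 1.03 ± 0.222 (log2 change 1.10, SE 0.15, limma adjusted p = 0.0181). Its counting interval of 1.92 to 5.27, from about 17.3 fragments, lay above both lymphoid values. With no filter on low genes its adjusted p was 0.053, and 35.1% of genes were called higher and 3.76% lower. For genes of other tissues, 1419 odorant and vomeronasal receptor genes averaged 0.472 scaled FPKM in tumour and 0.0335 and 0.0673 in lymphoid libraries, with a 95th percentile of 1.45 in tumour and 0.0778 and 0.163 in lymphoid libraries. The part of this background in the Pmaip1 value was not tested. Bcl2l11 and Pmaip1 were the 2 members whose change stayed above 0 without scaling (0.13 and 0.32, neither called), and it was above 0 under the other scalings tried.

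Bid, which links death receptors to mitochondria after cleavage by caspase 8 (chromosome 6, 120891930 to 120916853), was at 2.81 scaled FPKM in tumour and 2.17 and 1.85 in lymphoid libraries (log2 change 0.34, limma adjusted p = 0.175). Bad, whose protein is held inactive by phosphorylation through survival kinases (chromosome 19, 6941861 to 6951899), was at 1.11 in tumour and 1.73 and 1.57 in lymphoid libraries (log2 change -0.32, limma adjusted p = 0.144), on about 2.58 tumour fragments. Neither was called. Bid overlaps the opposite-strand gene Bcl2l13, and Bad the opposite-strand gene Gpr137, and the use of strand in counting is not given. Bbc3 encodes PUMA, the BH3-only target of p53 (chromosome 7, 16308393 to 16318205). It was listed at 0 in the tumour library and at 0.968 and 1.22 in lymphoid libraries. At the lymphoid level about 3.75 tumour fragments would be counted, and of 654 protein-coding genes with a like number 5.35% were also listed at 0. In the fit with no filter on low genes Bbc3 was called lower (limma adjusted p = 0.0385), with a size that depends on the pseudocount.

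Put in order of level, the members ran differently in the 2 groups. In tumour cells the order was Mcl1, Bcl2l1 (11.5), Bcl2 (9.61), Bcl2l11 (8.87), Bax (5.86), Bak1 (5.82), Pmaip1 (3.35), Bid (2.81), Bad (1.11) and Bbc3. Lymphoid means ran Mcl1, Bax (11.4), Bcl2 (9.09), Bcl2l1 (6.94), Bak1 (5.45), Bcl2l11 (3.51), Bid (2.01), Bad (1.65), Bbc3 (1.09) and Pmaip1 (1.03). Neighbours in the lymphoid order did not overlap between libraries, apart from Bbc3 and Pmaip1. Most of the tumour order is not resolved by counting error. The interval of Bax (2.92 to 11.2) overlapped those of all other members with an interval but Mcl1, and that of Mcl1 (36.0 to 46.0) overlapped none.

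Summed over members, pro-survival and pro-death transcripts stood in a similar proportion. The 3 pro-survival genes summed to 61.9 scaled FPKM in tumour and 53.9 and 56.3 in lymphoid libraries 1 and 2. The 7 pro-death genes summed to 27.8 in tumour and 27.2 and 25.1 in lymphoid libraries. The ratio of pro-survival to pro-death, which no scaling between libraries can alter, was 2.22 in tumour and 1.98 and 2.24 in lymphoid cells, so that the tumour value lay between the lymphoid ones. Mcl1 carries most of the pro-survival sum. Without it the ratio was 0.76 in tumour and 0.617 and 0.609 in lymphoid cells, a log2 difference of 0.31, where the lymphoid libraries differed by -0.02. Such values from 1 tumour library have no test.

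The makeup of the pro-death sum differed more than its size. BH3-only genes stood to effectors as 1.38 in tumour and as 0.563 and 0.54 in lymphoid cells. Bcl2l11 made up 31.9% of pro-death FPKM in tumour and 13.7% and 13.1% in lymphoid libraries. Pmaip1 made up 12.0%, against 4.39% and 3.49%. Bax, the leading pro-death gene of both lymphoid libraries with 40.6% and 46.8%, made up 21.1% in tumour. Within the pro-survival sum Bcl2l1 made up 18.6% in tumour and 12.7% and 12.5% in lymphoid libraries, while Mcl1 stood at 65.8%, against 68.9% and 72.9%.

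**Figure D2:**
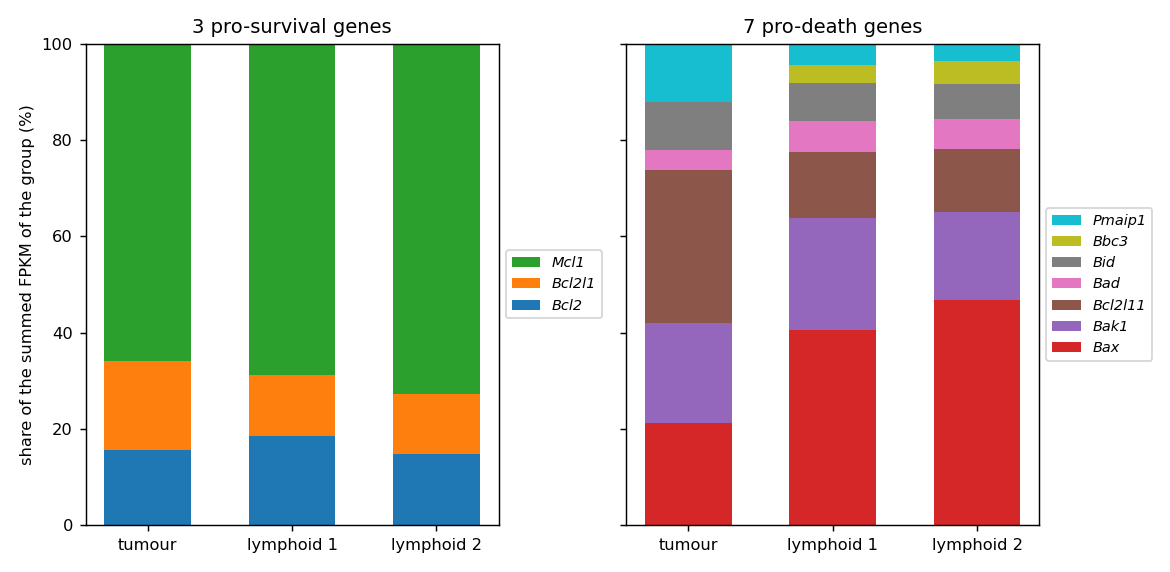
Share of each gene in the summed FPKM of the 3 pro-survival genes (left) and the 7 pro-death genes (right), in percent, for the tumour library and lymphoid libraries 1 and 2. In the tumour bar Bcl2l11 (31.9%) takes the largest pro-death share, and in both lymphoid bars Bax does (40.6% and 46.8%). These shares do not depend on the scaling between libraries and have no test. The tumour lead of Bcl2l11 over Bax is not resolved by counting error.

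Ratios of single pro-survival to single pro-death genes ran in both directions. Intervals are 95% counting intervals of the tumour ratio, and ratios have no test. Bcl2 to Bcl2l11 was 1.08 in tumour (interval 0.753 to 1.54) and 2.66 and 2.5 in lymphoid cells. Mcl1 to Bcl2l11 was 4.59 (3.37 to 6.29) in tumour, against 9.97 and 12.5. Mcl1 to Pmaip1, the pair in which NOXA is known to bind MCL1, was 12.2 (7.59 to 21.6) in tumour, against 31.2 and 46.8. In the other direction, Bcl2l1 to Bax was 1.97 (0.947 to 4.14) in tumour, against 0.620 and 0.599. Bcl2l1 and Bcl2l11 were both higher, and their ratio was 1.30 (0.857 to 1.92) in tumour, against 1.84 and 2.13, with an interval that reached lymphoid library 1. The widest gap between any members was Bax to Pmaip1, at 1.75 (0.757 to 4.28) in tumour and 9.27 and 13.4 in lymphoid cells.

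**Figure D3:**
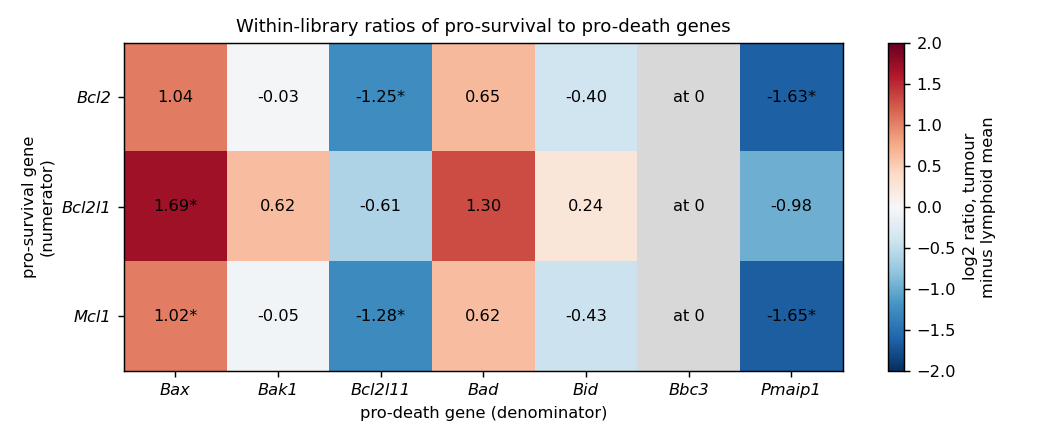
Log2 ratio of each pro-survival gene (rows) to each pro-death gene (columns), tumour minus the mean of the 2 lymphoid libraries; blue is lower in tumour and red higher, and an asterisk marks ratios whose tumour counting interval leaves out both lymphoid values. The Bcl2l11 and Pmaip1 columns are blue in all 3 rows (-1.65 to -0.61), and the Bax column is red (1.02 to 1.69). Bbc3 was listed at 0 in tumour and gives no ratio.

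The scaling between libraries sets the sign of several members. As deposited, 6 members were called and all 6 were lower in tumour, and 2 of the 9 tested lay higher without a call, with 4.74% of all genes called higher and 77.8% lower. With library totals 5 members were called, all higher, and 8 lay higher, with 43.1% of genes called higher and 1.87% lower. Small RNA genes made up 62.9% of the tumour total and 77.3% and 80% of the lymphoid totals, so that scaling rests mostly on them. With size factors taken from all genes above 0, Bcl2, Mcl1 and Bak1 turned to -0.19, -0.23 and -0.15. Bcl2l11 and Pmaip1 lay above the median of all tested genes, and Bax below it, under each of the 4 scalings. Each scaling shifts a gene and that median by nearly the same amount, so these positions were largely fixed in advance and are no separate support.

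Of the 8 tested genes of the wider family 3 were called higher and 1 lower, where 14.0% and 6.71% of all tested genes were. For Bnip3 and Bcl2l12, 2 of these 4, the level passed the filter on low values only through the group where it was high, so their calls are no support. Bcl2a1a, 1 of several near-identical A1 survival genes of blood cells, was at 15.1 scaled FPKM in tumour and 7.89 and 6.55 in lymphoid libraries (log2 change 0.97, limma adjusted p = 0.0325). Its copies Bcl2a1b (42.5 in tumour, against 28.8 and 30.6) and Bcl2a1d (27.1, against 16.7 and 18.2) did not pass the test, and reads cannot be divided between the copies with confidence. Myeloid cells also express A1 genes, and myeloid markers were higher in the tumour library as given above. The part of myeloid cells in the A1 values was not tested. Bik, a BH3-only gene, was at 5.35 in tumour and 1.24 and 0.94 in lymphoid libraries (log2 change 1.61, limma adjusted p = 0.00705). The tumour value of Bik rested on about 9.55 fragments. With counting error added its limma adjusted p was 0.21, and with Satterthwaite degrees of freedom 0.00248. Bnip3, a hypoxia-induced mitochondrial gene with a BH3-like region, was at 2.12 on about 7.07 tumour fragments, against 0.509 and 0.749. Bcl2l12 was listed at 0 in tumour and at 2.00 and 1.71 in lymphoid libraries, a level that would give about 3.79 tumour fragments.

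Downstream of the mitochondria, 3 of 15 tested genes for release proteins and caspases were called lower and 0 higher by limma, with a median of -0.15. Over all tested genes 6.71% were called lower and 14.0% higher. At an unadjusted p under 0.05, 4 of the 15 were lower and 2 higher, where over all tested genes the shares were 15.3% lower and 22.1% higher. Vdac2, an outer-membrane channel that binds BAK, was at 9.33 scaled FPKM in tumour and 15.6 and 16.3 in lymphoid libraries (limma adjusted p = 0.0426). Htra2, a released protease, was at 0.619, against 1.44 and 1.90, and the executioner caspase gene Casp6 at 1.48, against 2.92 and 2.86. Both rested on under 10 tumour fragments, and Htra2 passed the filter only through the lymphoid libraries (adjusted p = 0.105 with no filter). Of 5 tested IAP genes, which encode caspase inhibitors and ubiquitin ligases, 1 was called higher and 0 lower, against the same shares of all tested genes. Birc3, the called gene, was at 18.7 in tumour cells, against 11.0 and 11.6 in lymphoid libraries (log2 change 0.68, limma adjusted p = 0.0483).

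On the death receptor route 2 of 10 tested genes rose, a share near the 14.0% of all tested genes, and the median was 0.03. Tnfrsf10b, the mouse receptor for the death ligand TRAIL, had the largest change of the pathway lists. It was at 15.6 scaled FPKM in tumour and 2.27 and 2.08 in lymphoid libraries (log2 change 2.38, SE 0.14, limma adjusted p = 0.00312), on about 93.8 tumour fragments. It was the 1 gene of these lists still called with counting error added (limma adjusted p = 0.0443). Fasl, the ligand of FAS, was at 27.0, against 15.3 and 12.4 (limma adjusted p = 0.0427). The TRAIL gene itself, Tnfsf10, was at 6.25 in tumour and 6.97 and 6.01 in lymphoid libraries, and Casp8, which cleaves BID, at 25.7, against 22.5 and 24.4, and neither was called.

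Of 16 tested regulators of family members 2 rose, a share near the 14.0% of all tested genes. Both encode survival kinases that phosphorylate BAD. Pim1 was at 38.3 scaled FPKM in tumour and 20.5 and 20.5 in lymphoid libraries (limma adjusted p = 0.0288), and Pim2 at 9.33, against 3.77 and 4.30 (limma adjusted p = 0.0214). Of the 6 tested genes for kinases or binding partners of BAD, the other 4 were not called. Pim3 and Ywhab lay below both lymphoid libraries, and Akt1 and Ywhaz above both. Pim3 was at 1.08 in tumour, against 1.87 and 1.7, on about 4.99 tumour fragments. The median of the whole list was -0.13. Of the factors whose motifs were marked above, the list holds p53 and FOXO genes but no NF-kB gene. Trp53, Foxo1 and Foxo3 were not called. Trp53 was at 15 in tumour and 15.2 and 14.4 in lymphoid libraries, and Foxo3 at 9.92, against 11.5 and 12.0. Foxo1 was at 15.2, against 19 and 15.6. The activity of these factors was not tested.

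**Figure D4:**
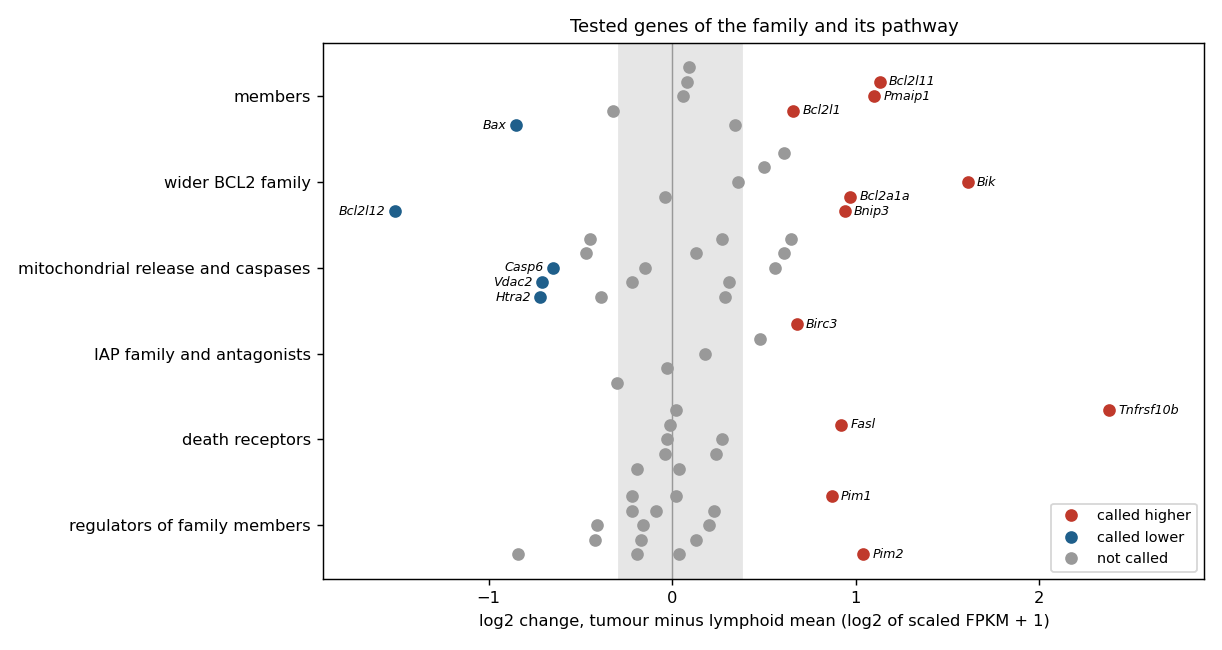
Log2 change of every tested gene of the members and of the 5 related lists, tumour minus lymphoid mean, on scaled FPKM; red was called higher, blue lower and grey not called, and the grey band spans the interquartile range of all tested genes (-0.29 to 0.38). The called members lie outside the band, a position that passing the test largely fixed, and Tnfrsf10b (2.38) is the farthest point.

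The genes whose pattern over the 3 libraries lay nearest to each called member were found by distance on centred log2 values, among 3868 to 4791 genes of like level. They were Tmem65, Pak4, Asb13, Mfsd6 and Rheb for Bcl2l11 (distances 0.017 to 0.052), and Gpr19, Gpr137, Fam213a, Hyal2 and Chic1 for Pmaip1 (0.012 to 0.022). For Bcl2l1 they were Gm14436, Ifi27l1, Atp2b4, Mrpl37 and Riok1 (0.008 to 0.028), and for Bax Ndufb6, Krcc1, Pole4, Mrpl23 and Fcf1 (0.007 to 0.029). With 3 libraries many genes share a pattern.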

How the data were processed

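RNA was measured in 3 libraries, 1 from tumour and 2 from lymphoid CD4+ T cells, as stranded total RNA after ribosomal RNA removal, per the labels' protocols. DESeq2, kallisto and mm10 are named, per the submitters' processing notes, with versions and roles not given in the sources used here. FPKM was taken as the unit of the authors' deposited values, inferred from the tracking_id header and from sums that differ between libraries. Among 23832 rows, 252 symbols occurred more than once and were represented by their highest row. 22937 symbols matched GENCODE M21 (GRCm38) by symbol or a unique synonym.

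The value of 1 fragment was taken as the product of FPKM and length shared by the most genes (within 3%) that have a single transcript, at least 1000 nt long, and lie under 2 FPKM. Fragments per gene use the median length of transcripts matched to RefSeq mRNAs, and intervals (exact Poisson for levels, Clopper-Pearson for ratios, 95%) cover counting error only. In the tumour library 20.1% of tested genes had under 10 estimated fragments, and the median was 26.0.

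Median-of-ratios factors (0.579 for tumour, 1.29 and 1.33 for lymphoid) came from genes with a deposited mean of at least 1 and above 0 in every library. limma 3.58.1 (R 4.3.3), its prior variance following a trend in mean level, was run on log2(scaled FPKM + 1), a scale that understates changes of low genes, for 10004 genes with a scaled mean of at least 1, with a term for tumour. It was also run on simulated data whose tumour values had the lymphoid spread and no added counting error. That run cannot judge calls from the shallower tumour library. In separate fits to the real data, counting error was added as the Poisson variance of the tumour value. Satterthwaite degrees of freedom for it, size factors from all genes and a filter on the deposited mean were added after the results had been seen. Other scalings, pseudocounts, filters, summed rows and left-out lymphoid libraries were also tried. The members and lists were chosen with earlier results of these data known. All members were named, with the called genes of each other list and the 5 genes nearest to each called member. Bcl2a1b, Bcl2a1d, Tnfsf10, Casp8, Pim3, Akt1, Ywhab, Ywhaz, Trp53, Foxo1 and Foxo3 were named after their values were seen. The same holds for the markers and the genes under other observations. Promoter sequences are from RefSeq.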

Additional observations from a re-analysis of the deposited data

How the results depend on the processing

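No paired analysis was possible because the tumour library's title carries no replicate number and its group holds 1 sample. Leaving out a lymphoid library leaves no residual degrees of freedom and so no count of calls. Without lymphoid library 1 or 2 the balance of pro-survival to pro-death sums was -0.01 or 0.16 (0.08 with both), and the 4 called members kept their sign. That balance was 0.20 as a difference of mean log values and 0.31 without Mcl1, and the cause was not tested. Genes called higher (1401) became 465 as deposited, 4758 with library totals, 7364 with no filter, 277 at a mean of at least 5 and 97 with counting error added. Genes called lower (671) became 7620 as deposited, 207 with library totals, 190 at a mean of at least 5, 1 with counting error, 317 with counting error and Satterthwaite degrees of freedom, and 1641 with size factors from all genes. The share of higher calls was thus 67.6% after median-of-ratios scaling, 5.75% as deposited, 95.8% with library totals and 37.5% with size factors from all genes. The 4 called members became 2 at a mean of at least 5, where fewer genes were tested, 0 with counting error and 2 with Satterthwaite degrees of freedom. The split of 3 higher and 1 lower became 0 and 6 as deposited, and 5 and 0 with library totals. As deposited the log2 change was -0.97 for Bcl2, -0.40 for Bcl2l1, -1.09 for Mcl1, -0.89 for Bak1 and -0.47 for Bid. With size factors from all genes it was -0.19 for Bcl2, -0.23 for Mcl1 and -0.15 for Bak1, and with library totals 0.13 for Bad. These signs follow from the shift that each scaling gives to all genes. The tumour library's depth limits Bad, Bax and Bbc3 most.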

Other observations

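Several family and pathway genes were too low to test and had higher scaled values in the tumour library than in both lymphoid libraries. Bok, a relative of BAX and BAK, was at 1.51 scaled FPKM in tumour and listed at 0 in both lymphoid libraries. Hrk, a BH3-only gene known from neurons, was at 0.765 in tumour and 0.0123 and 0.00864 in lymphoid libraries. Bmf was at 1.00 in tumour, against 0.499 and 0.532. Birc5, which encodes survivin, a protein of dividing cells, was at 1.76, against 0.254 and 0.364. They rested on about 4.20, 7.80, 7.31 and 7.12 tumour fragments. The 95th percentile of odorant and vomeronasal receptor genes was 1.45 scaled FPKM in tumour, against 0.0778 and 0.163 in lymphoid libraries 1 and 2, so levels near 1 were also reached by genes of other tissues. The part of this background in the values was not tested.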
